A study of Mus musculus with 7 samples.

Results

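The genes described are 6 lysosomal proteases, Ctsw, Ctsc, Ctsb, Ctsd, Ctsl and Ctss, and 4 protease inhibitors of the serpin family, Serpinb9, Serpinb9b, Serpinb6b and Serpina3g. They were taken by gene name from the non-control probes of 7 mouse microarrays, which gave 12 probes for 10 genes out of 24054 named genes on the array. Ctsc and Ctsd had 2 probes each and the others 1. Each array held the Cy3-labelled total RNA of 1 sample of OT-1 CD8 T lymphocytes from lymph node, heterozygous for the OT-1 T cell receptor transgene (OT-1het) and on a Rag-/- background, after 24 h of culture with 100 nM of the ovalbumin peptide SIINFEKL. There were 4 samples labelled WT and 3 labelled Lck-/-. In the Lck-/- samples the knocked-in, doxycycline-dependent Lck had been shut off by removing doxycycline from the diet for 7 days. The labels give no doxycycline feeding, knocked-in Lck or age for the WT samples, so a difference in diet or construct cannot be told apart from the loss of the kinase. The labels name no promoter for the knocked-in Lck and do not describe a sort of the cultured lymphocytes.

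Cytotoxic T cells keep granzymes and perforin in lysosome-related granules, and both the maturation of these effectors and the safety of the cell depend on other proteases and on inhibitors. Cathepsin C removes the amino-terminal dipeptide that keeps progranzymes inactive. Serpins present a loop as bait to a protease, are cleaved, and trap the enzyme covalently, and those in the cytosol and nucleus of cytotoxic cells can neutralise granule or lysosomal proteases that leak out. Lck, the kinase that phosphorylates the CD3 and zeta chains of the T cell receptor, lies at the start of the signal that induces the cytotoxic programme.

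The probes read different parts of each transcript, and those shown here are the ones on which the results turn. The first 30 bases of each 60-base probe are given 5′ to 3′, copied from the files, with G and C in capitals to show base composition. Ctsw and Serpinb6b are the genes whose groups did not overlap, Serpinb9 and Serpinb9b are neighbours of which only the first was detected, and the Ctsc probes gave differences of opposite sign.
Ctsw, A_55_P2021981: aGtaaaGaaGGCaCGGaCCtCttGtCCtCC
Serpinb6b, A_55_P2013043: CCttCatCCtCtCtGCaGCaataCtGGGat
Serpinb9, A_55_P2134246: ttCCttCattGatGaaCaGtGatGtaaaCG
Serpinb9b, A_51_P406780: GtaaatttaaatttaCaaaCaaGtaaattt
Ctsc, A_52_P195839: CGGGtCtttatCaCtCaCaGaGtGatttaG
Ctsc, A_55_P2072005: ttGttCatGCaGCtGGGaaCtGtGGGaatG
The Ctsw probe lies on mm9 at chr19:5465315-5465374, minus strand. The 3 clade B serpins lie close together on the plus strand, Serpinb6b at chr13:33070776-33070835, Serpinb9 at chr13:33109767-33109824 and Serpinb9b at chr13:33132294-33132353. The Ctsc probes lie at chr7:95458436-95458495 for A_52_P195839 and chr7:95435428-95435487 for A_55_P2072005, and the files assign the second to another transcript model, ENSMUST00000131108. The exon or untranslated region under each probe was not analysed here. No 2 of the 12 probes shared a run of more than 8 bases on either strand over 66 pairs. Against the same-strand probes of other cathepsin, serpin and Lgmn genes on the array, the longest shared run of any of the 12 was 10 bases.

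Across the arrays, 46.6% to 61.1% of non-control spots were well above background and no spot was saturated. Lck signal overlapped between the groups as labelled, with 8.02 on Lck-/- 1, the highest of the 7 arrays, and 6.04 on WT 4, the lowest. The other WT arrays read 7.44, 7.67 and 7.36, and the other Lck-/- arrays 6.21 and 6.17. The Lck signal of WT 4 and Lck-/- 1 was thus opposite to their labels. Whether the probe lies within what the knockout removes was not tested, and every direction below is between arrays as labelled. All values are log2 signal relative to the 75th percentile of the same array, so that 0 is that percentile. All 8 markers of CD8 T cells were well above background on every array. Their summed linear level, in units of the 75th percentile, ran from 528.1 to 712.3 in WT and from 735.1 to 1088 in Lck-/-, without overlap. Singly, only Thy1 of the 8 did not overlap. All 8 had positive differences (median 0.38), where the share of all genes was 57.6%. With each array centred on its median 6 of 8 were positive, against 25.9% of all genes. The summed level of the 10 NK cell markers ran from 0.918 to 7.46 in WT and from 3.08 to 11.0 in Lck-/-, highest in each group on WT 4 and Lck-/- 2. That of the 15 myeloid and dendritic markers ran from 160.7 to 222.3 and from 189.9 to 290.5. Most of it came from a single gene, Siglech, without which it ran from 16.2 to 26.8 and from 27.5 to 30.5. On WT 3 the markers Cd3e, Fcer1g, Csf1r and Cd68 had no value and added nothing to these sums. The WT 3 sums are therefore too low, among them the lowest WT sums of the CD8 and NK markers. Whether the groups overlap without Siglech cannot be told from sums that lack Csf1r and Cd68 on WT 3. The macrophage and dendritic cell markers Fcgr1, Mrc1, Clec9a and Xcr1 were not well above background on any array. In such bulk samples, fewer cells of a type and less RNA per cell cannot be told apart. The study calls its replicates biological without saying whether each came from its own animal, so p-values measure the spread between these samples.

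No cathepsin or serpin of the set passed the test between the groups. Of the 9 members tested, 0 reached an adjusted p under 0.05 (limma, two-sided, Benjamini-Hochberg adjustment over 14851 genes), where the share of all genes called was 0%. At an unadjusted p under 0.05 there was 1 member, Ctsw, higher in Lck-/-, against 7.08% of all genes in either direction, 4.92% higher and 2.17% lower. The groups did not overlap for 2 members, Ctsw and Serpinb6b, both higher in Lck-/-, where the share of all genes was 5.09% in that direction, 2.14% in the other and 7.23% in either. Differences were positive for 5 of the 9 members and for 57.6% of all genes. Differences of the 9 ran from -0.34 to 0.85 with a median of 0.16, and those of all genes had a median of 0.04 and quartiles of -0.10 and 0.21. With each array centred on its median, the median of all genes moved to -0.16 and that of the members to -0.05. Leaving out Lck-/- 2 or WT 3 brought the median of the members to 0.01 and 0.04, and leaving out Lck-/- 1 to 0.28.

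**Figure D1:**
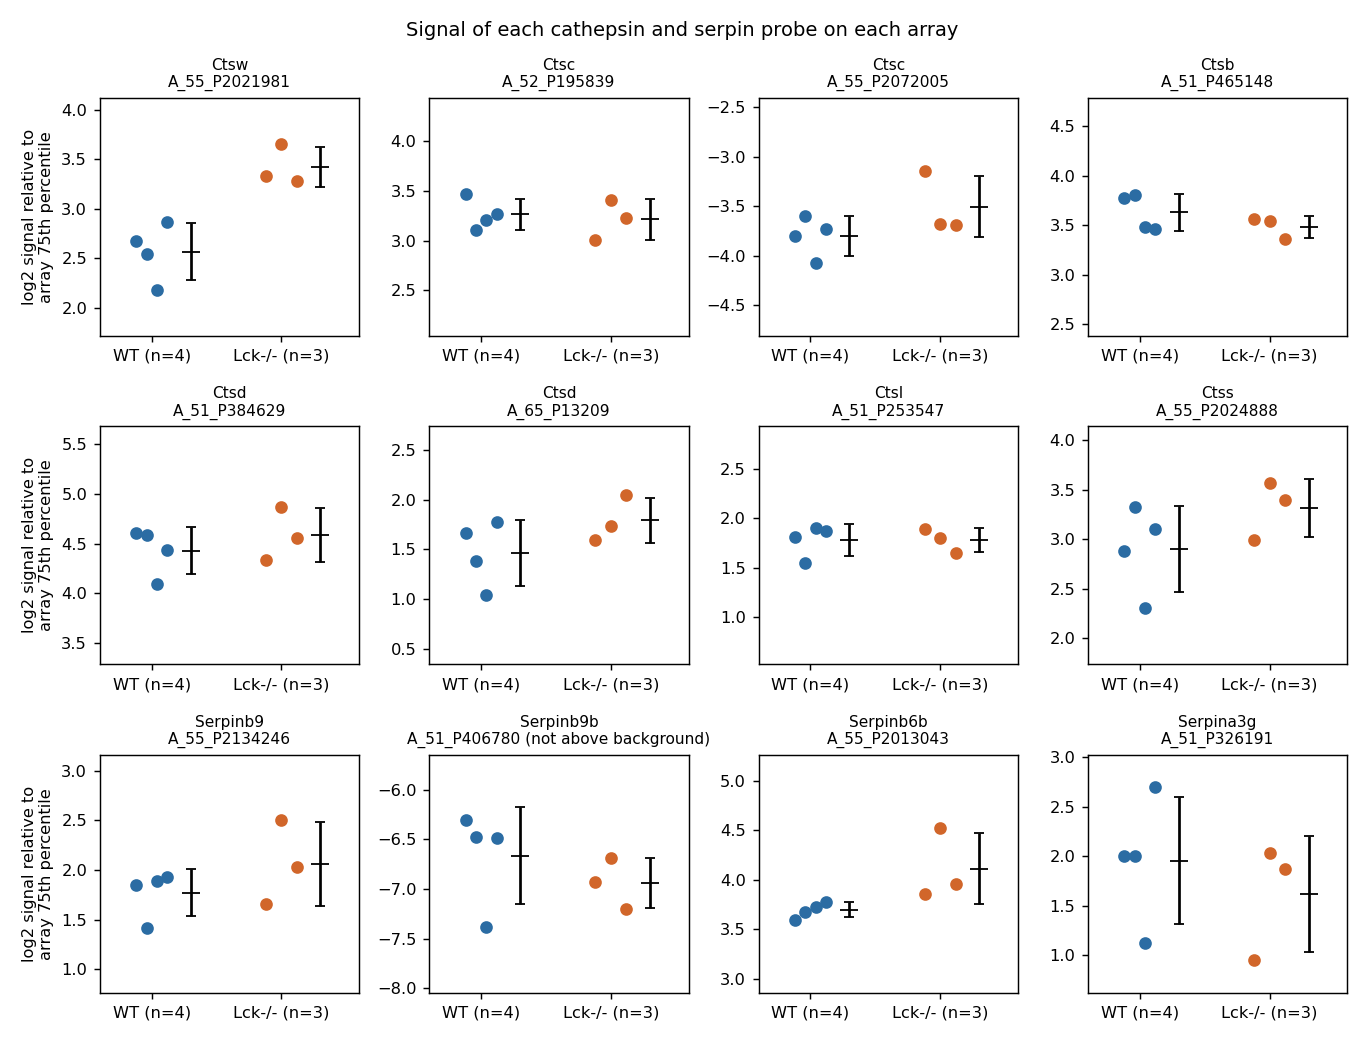
Signal of each of the 12 probes on each array, as log2 relative to the array's 75th percentile (y axis, with its own range of values in each panel), for 4 WT (blue) and 3 Lck-/- (orange) arrays, with the mean and SD beside the points. Only Ctsw and Serpinb6b have all Lck-/- points above all WT points, and the Serpinb9b probe was not well above background on any array.

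Ctsw encodes cathepsin W, a cysteine protease made mainly by CD8 T cells and NK cells, whose absence in mice leaves killing largely intact. Its signal was 2.67, 2.55, 2.18 and 2.87 on WT 1 to WT 4 and 3.33, 3.66 and 3.27 on Lck-/- 1 to Lck-/- 3. Every array labelled Lck-/- was above every array labelled WT, and the gap between WT 4 and Lck-/- 3 was smaller than the spread within WT. The WT mean was 2.57 ± 0.29 (SD, n = 4) and the Lck-/- mean 3.42 ± 0.21 (SD, n = 3). They differed by 0.85 (SE 0.20, 95% interval 0.40 to 1.31) or 1.81-fold. This did not pass over all genes (limma adjusted p = 0.598). Without WT 4 and Lck-/- 1, whose Lck signal opposed their labels, the difference was 1.00 (limma adjusted p = 0.174). The summed level of the CD8 T cell markers also stood higher on every Lck-/- array than on any WT array, though singly only Thy1 did so. The part of these markers in the Ctsw difference was not tested. In each group the highest Ctsw value fell on the array with the highest NK marker level. Without those arrays, WT 4 and Lck-/- 2, the difference was 0.84 (limma adjusted p = 0.470, within a range of 0.174 to 0.999 over 22 alternatives), and leaving out 1 array at a time gave 0.72 to 0.95.

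The other cathepsins of the set had differences from -0.14 to 0.41, and none passed the test. Ctsc, which encodes the dipeptidyl peptidase that activates granzymes, read 3.47, 3.10, 3.21 and 3.27 on the WT arrays and 3.00, 3.41 and 3.22 on the Lck-/- arrays with its brighter probe. The groups overlapped in part, with the highest value on WT 1 and the lowest on Lck-/- 1, and the difference was -0.05 (SE 0.16, 95% interval -0.42 to 0.31, limma adjusted p = 0.986). Its sign turned without WT 1 (0.02), without Lck-/- 1 (0.05) and with the mean of both probes (0.12). The other Ctsc probe, A_55_P2072005, had a WT mean of -3.80 ± 0.20 (SD, n = 4). Its Lck-/- mean was -3.50 ± 0.31 (SD, n = 3), higher by 0.30 (SE 0.20) when probes were fitted singly. On that probe Lck-/- 1 stood at -3.14, above the other 6 arrays, which lay between -4.07 and -3.60, whereas on the brighter probe the same array was the lowest.

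Ctsb and Ctsl encode cysteine endopeptidases of the lysosome, and cathepsin B on the surface of degranulating T cells has been proposed to shield them from perforin. Ctsb read 3.78, 3.81, 3.48 and 3.46 on the WT arrays and 3.56, 3.54 and 3.36 on the Lck-/- arrays. WT 1 and WT 2 were above all other arrays and the rest were mixed. The difference was -0.14 (SE 0.15, 95% interval -0.49 to 0.21, limma adjusted p = 0.903). Ctsl had the smallest range of the 9 genes over the 7 arrays, 0.35, with 1.81, 1.55, 1.90 and 1.87 on WT and 1.89, 1.80 and 1.65 on Lck-/-. Its difference was 0.00 to 2 decimals, with a 95% interval of -0.34 to 0.33, so that a change of either sign up to about that size is not excluded by these arrays.

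Ctsd encodes an aspartic protease, the only one of the 6 that is not a cysteine protease. Its brighter probe read 4.61, 4.58, 4.09 and 4.43 on the WT arrays and 4.33, 4.87 and 4.55 on the Lck-/- arrays. The groups overlapped, with Lck-/- 2 highest and WT 3 lowest, and the difference was 0.16 (SE 0.19, 95% interval -0.29 to 0.60, limma adjusted p = 0.929). It became -0.05 when arrays were centred on their medians and 0.01 without Lck-/- 2. The second probe, A_65_P13209, whose 60 bases span 1659 bases of the genome (chr7:149566847-149568505, minus strand), differed by 0.33 (SE 0.22) when fitted singly and also overlapped between the groups.

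Ctss encodes a cysteine protease best known from antigen presenting cells, where it trims the invariant chain bound to MHC class II. It read 2.88, 3.32, 2.31 and 3.10 on the WT arrays and 2.99, 3.56 and 3.39 on the Lck-/- arrays. Lck-/- 2 and Lck-/- 3 were above all WT arrays, Lck-/- 1 was not, and WT 3 was the lowest of the 7 arrays. The difference was 0.41 (SE 0.26, 95% interval -0.19 to 1.02, limma adjusted p = 0.806), and it was 0.21 without WT 3. The summed level of the myeloid and dendritic markers overlapped between the groups. Without Siglech the computed sums were higher on every Lck-/- array. The WT 3 sum lacked Csf1r and Cd68, however, so the groups may overlap there too. The mean log2 level of these markers was highest on WT 2 at -1.22, against -1.47 to -1.23 in Lck-/-, and WT 2 also had the highest Ctss value of its group. The part of these cells in the Ctss values was not tested.

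Serpinb6b had the tightest WT values of the set and no overlap between the groups. In the mouse its protein inhibits granzyme A. It read 3.60, 3.68, 3.73 and 3.78 on the WT arrays and 3.85, 4.52 and 3.96 on the Lck-/- arrays. The WT mean was 3.70 ± 0.08 (SD, n = 4) and the Lck-/- mean 4.11 ± 0.36 (SD, n = 3). They differed by 0.41 (SE 0.18, 95% interval -0.01 to 0.84, limma adjusted p = 0.706). Lck-/- 2, the array highest in NK markers, stood apart from the other Lck-/- arrays, and without it the difference was 0.21. Without WT 4 and Lck-/- 2, the arrays highest in NK markers, it was 0.24, and without WT 4 and Lck-/- 1 it was 0.57. With arrays centred on their medians, the differences of Serpinb6b and Ctss were both 0.21.

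Serpinb9 encodes the inhibitor of granzyme B that protects cytotoxic cells from their own granules. It read 1.85, 1.42, 1.89 and 1.93 on the WT arrays and 1.66, 2.50 and 2.03 on the Lck-/- arrays. Lck-/- 2 and Lck-/- 3 were above all WT arrays, while Lck-/- 1 was below 3 of them. The difference was 0.29 (SE 0.23, 95% interval -0.24 to 0.82, limma adjusted p = 0.853), falling to 0.07 without Lck-/- 2 and 0.17 without WT 2, and it was 0.49 without Lck-/- 1 and 0.09 with median centring. Its neighbour Serpinb9b, a mouse inhibitor of granzyme M, was not well above background on any of the 7 arrays. The Serpinb9b probe read -7.39 to -6.31 on WT and -7.20 to -6.69 on Lck-/-, below the lowest signal that counted as well above background on each array (-5.12 to -4.08), so no fold was computed and it did not enter the test. As the printed stretch shows, this probe is poor in G and C, at 16.7% over its 60 bases, against 35% to 55% for the other 11 probes. Of the 50 probes on the array with as little G and C or less, 5 (10%) were well above background on at least 3 arrays, against 52.6% of all 55681 probes. Whether the transcript is absent or the probe reads it poorly was not tested.

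Serpina3g encodes an intracellular inhibitor of cathepsins B and L that favours the survival of memory CD8 T cells in mice. It had the widest range of the set over the 7 arrays, 1.75. It read 2.00, 2.00, 1.13 and 2.69 on the WT arrays and 0.95, 2.03 and 1.87 on the Lck-/- arrays. The low values were those of WT 3 and Lck-/- 1 and the high one that of WT 4, so neither group was uniform. The difference was -0.34 (SE 0.39, 95% interval -1.25 to 0.57, limma adjusted p = 0.92). It was -0.01 without Lck-/- 1, -0.09 without WT 4 and -0.62 without WT 3, and without WT 4 and Lck-/- 1 together it turned to 0.24.

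**Figure D2:**
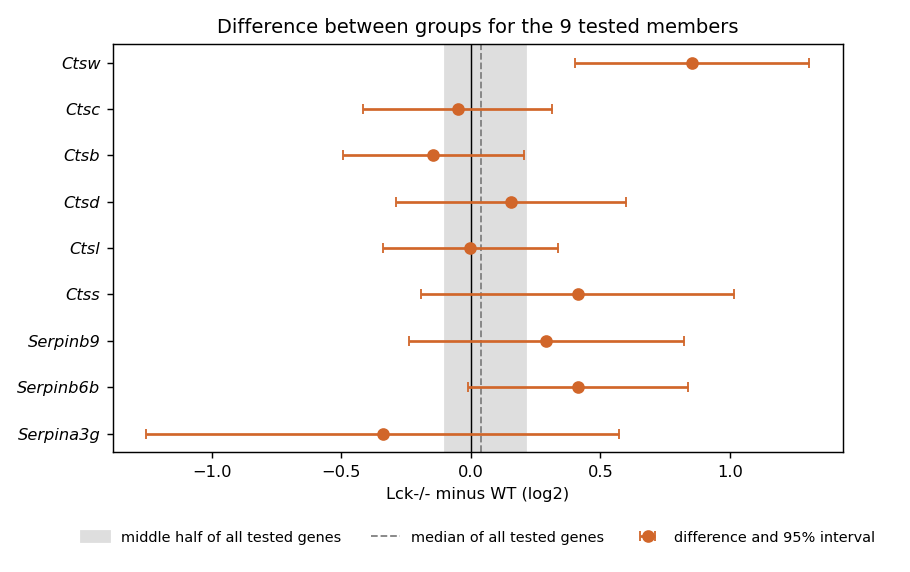
Difference between Lck-/- and WT (x axis, log2) for each of the 9 tested members, as points with 95% intervals from the limma fit, over the interquartile range (grey) and the median (dashed) of all 14851 tested genes. Only the Ctsw interval, 0.40 to 1.31, stays clear of 0, before any adjustment for the number of genes.

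The members did not follow a single order of arrays. Lck-/- 2 had the highest value of the 3 Lck-/- arrays for 7 of the 9 members, the exceptions being Ctsb and Ctsl, and across all genes it was highest for 43.7%. Lck-/- 1 was the lowest of the 3 for 6 members, against 35.5% of all genes. In WT, WT 3 was lowest for 4 members, Ctsw, Ctsd, Ctss and Serpina3g, against 49.9% of all genes. Serpinb9 and Serpinb6b, which encode inhibitors of granzymes, stood 0.73 and 0.82 above the WT mean on Lck-/- 2, where the mean of the NK markers exceeded its WT average by 2.12. On WT 4, where the NK marker mean exceeded that average by 1.75, the same serpins were 0.16 and 0.08 above their WT means. Both deviations of the NK marker mean are somewhat high, since WT 3 lacked a value for the bright marker Fcer1g. For both serpins WT 4 was the highest of the WT arrays, if by little. The part of NK cells in these values was not tested.

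**Figure D3:**
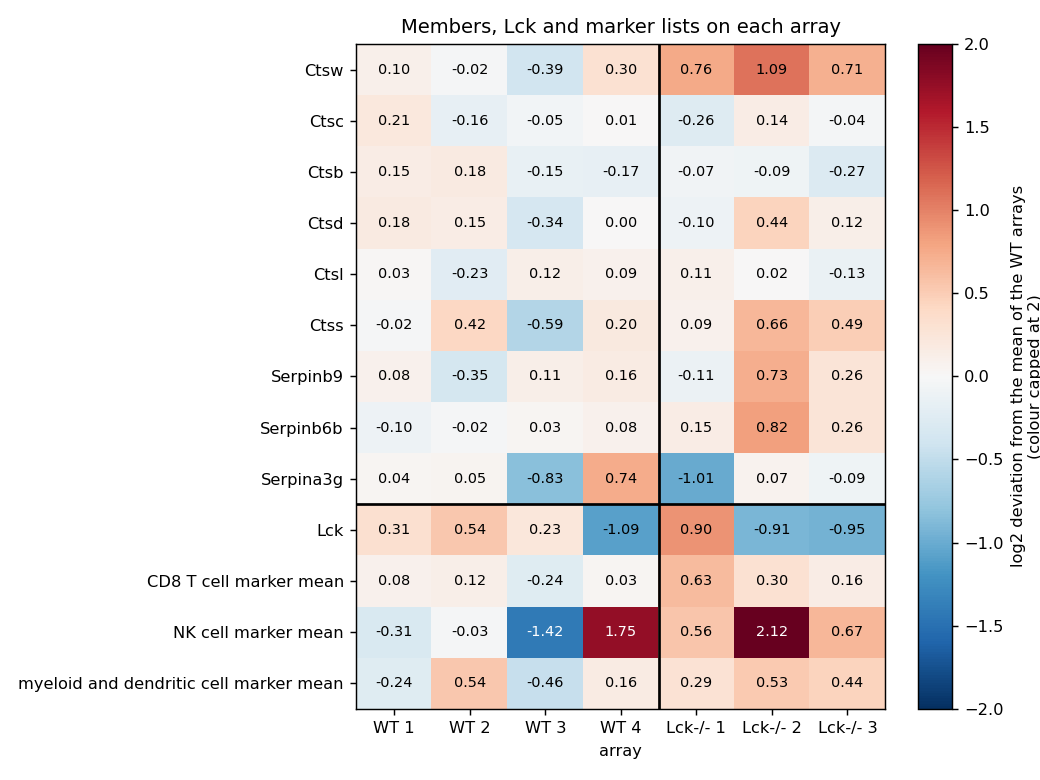
Deviation of each value from the mean of the 4 WT arrays (log2, colour and printed number) on each of the 7 arrays, for the 9 tested members (upper block) and for Lck and the mean of 3 marker lists (lower block). Ctsw is above the WT mean by 0.71 to 1.09 on the Lck-/- arrays, while Lck lies on both sides of the WT mean in both groups and the NK marker mean does so in WT only. The marker means of WT 3 lack Cd3e, Fcer1g, Csf1r and Cd68, which had no value on that array.

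Among 12305 genes well above background on all 7 arrays with no missing value, the genes whose array pattern lay closest to a member were found by the root mean square difference of values centred on each gene's own mean. For Ctsw they were Itgb3 (0.12), Pa2g4 (0.14) and Ramp3 (0.15). For Ctss they were Slc25a20 (0.10), S100a11 (0.10) and Nrros (0.11). For Serpina3g the nearest, Olfr414 (0.22), Setmar (0.25) and 3110070M22Rik (0.26), were farther off. The root mean square of the centred values themselves was 0.48 for Ctsw, 0.38 for Ctss and 0.55 for Serpina3g. These likenesses rest on 7 arrays.

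Proteases and inhibitors were next read against each other within each array, as the log2 protease signal minus the log2 inhibitor signal relative to the WT mean of that quantity. The 6 pairs were chosen after values were seen, so the permutation p-values only describe these arrays and give no support for a difference. For granzyme B over Serpinb9 it was 0.31, -1.31, 0.45 and 0.55 on the WT arrays and 2.20, 0.85 and 1.64 on the Lck-/- arrays. All Lck-/- arrays were above all WT arrays. The means differed by 1.56, and by 1.13 without WT 2, the lowest array (exact permutation test, two-sided, p over all arrays = 0.0571, the smallest this design allows, and 0.343 adjusted over 6 pairs). The difference came from the side of the granzyme: Gzmb differed by 1.86 (SE 0.55, limma adjusted p = 0.61). Serpinb9 was also higher in Lck-/-, by 0.29, which lowered the difference of the pair. For Gzma over Serpinb6b the difference was 0.66 with overlapping groups (exact permutation p = 0.4, adjusted 0.771), and it was 0.35 without Lck-/- 2 and 1.16 without WT 4. Cathepsins B and L over Serpina3g differed by 0.20 and 0.34, and cathepsins C and L over cystatin F, encoded by Cst7, by -0.15 and -0.10, all with overlap (exact permutation p from 0.457 to 0.914, adjusted 0.771 to 0.914). Without WT 4 and Lck-/- 1, Ctsb over Serpina3g was -0.48.

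Related genes were summarised by list. None of these genes passed over all genes (limma). The 9 genes of other cathepsins and legumain all had positive differences, where the share of all genes was 57.6%. Their median was 0.15, and it was 0.53 without Lck-/- 1 and 0.45 without WT 4. Over the 5 of them well above background on all 7 arrays the median was 0.10. With arrays centred on their medians 4 of 9 were positive, where the share of all genes fell to 25.9%, the background for each count with median centring below. The largest difference among those detected on all arrays was 0.40 (SE 0.47) for the aminopeptidase gene Ctsh, which was -0.11 without Lck-/- 2, and then 0.15 (SE 0.45) for Lgmn, the legumain gene, which ran from -0.10 to 0.61 with single arrays left out. At an unadjusted p under 0.05 (limma) were 3 of the 9, all higher in Lck-/-, where the share of all genes in that direction was 4.92%. They were Ctsg, Ctsk and Ctso, well above background on only 4, 3 and 6 of the 7 arrays. Genes that passed the background filter on some arrays only give no support for a difference. Of 5 tested cystatins 4 were positive (1 of 5 with median centring). Cst3, the cystatin C gene, differed by 0.33 (SE 0.20, with 3 WT values), Cst7 by 0.10 (SE 0.20) and Cst6 by -0.61 (SE 0.22). Cst6 was -0.27 with the deposited values, and Cst3 was 0.13 with median centring and 0.51 without Lck-/- 3.

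Of 20 other clade B serpins, 6 were detected well enough to be tested, with a median difference of 0.44. Of these, 5 were positive under each of the 5 scalings, where the share of all genes ran from 25.9% to 57.6%. Serpinb2, among the 6, was well above background on only 3 of the 7 arrays. Without a filter on background the median over all 20 was -0.20. The other Serpinb6 genes were among the positive ones, with 0.39 (SE 0.15) for Serpinb6a, 0.28 (SE 0.16) for Serpinb6c and 0.50 (SE 0.17) for Serpinb6d, beside the 0.41 of Serpinb6b. Their sizes depended on the scaling, with 0.18 for Serpinb6a and 0.08 for Serpinb6c under median centring and 0.11 for Serpinb6d with the deposited values. For Serpinb6a and Serpinb6d, 2 of the 6 tested, the groups did not overlap, where 5.09% of all genes stood apart in that direction. Serpinb6a read 2.59, 2.33, 2.20 and 2.18 on the WT arrays and 2.86, 2.62 and 2.67 on the Lck-/- arrays, so that, unlike Serpinb6b, its highest value fell on Lck-/- 1. Serpinb1a, an inhibitor of neutrophil-type serine proteases, had the largest difference, 1.24 (SE 0.59). It was 0.74 without Lck-/- 2, 1.92 without Lck-/- 1, and 2.26 (limma adjusted p = 0.0339) with WT 4 and Lck-/- 1 left out, a value past the threshold, in a range of 0.0339 to 1.000 over 22 alternatives. Those 2 arrays were left out for their own Lck signal, and the fit without them called 57 genes among all genes. Serpinb1a read -1.97, -1.87, -2.23 and -0.66 on WT and -1.79, 0.57 and -0.10 on Lck-/-. WT 4, Lck-/- 2 and Lck-/- 3 had the 3 highest. These were the arrays with low Lck signal and also the 3 with the highest NK marker levels. The part of either in the Serpinb1a values was not tested.

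Outside clade B, the 4 tested Serpina3 relatives of Serpina3g were mixed, with -0.59 (SE 0.23) for Serpina3f and 0.10 (SE 0.50) for Serpina3h. Of 7 tested serpins of other clades, 3 were negative, 6 with median centring and 4 with the other 3 scalings. Serpinc1, which encodes antithrombin, differed by -1.76 (SE 0.61, limma adjusted p = 0.646) and Serpinf1 by -0.95 (SE 0.59), which was -0.53 without Lck-/- 3. Serpinc1 read 1.32, 0.54, 1.12 and -0.02 on WT and 0.55, -1.58 and -2.03 on Lck-/-, and with WT 4 and Lck-/- 1 left out it differed by -2.80 (limma adjusted p = 0.0232), again past the threshold, within a range of 0.0232 to 0.999. That is the same fit that called 57 genes among all genes.

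The 6 tested genes of granzymes and perforin all had positive differences, with a median of 0.73, and 4 of 6 with median centring. Gzmb and Gzmm did not overlap between the groups, at 1.86 and 0.38 (SE 0.16), where 5.09% of all genes stood apart in that direction. Gzmm, named because of that count, was 0.18 with median centring and 0.20 with the deposited values. Gzma and Gzmc differed by 1.07 (SE 0.62) and 1.10 (SE 0.81), and both were highest in WT on WT 4. Without Lck-/- 2 they were 0.56 and 0.62, and Gzmc was 1.86 without WT 4. The 27 lysosomal hydrolases, membrane proteins and their regulators had a median difference of 0.05, with 18 positive, and 4 positive with median centring. The tetraspanin gene Cd63 differed by 0.70 (SE 0.50), or 0.28 without Lck-/- 2 and 1.27 without Lck-/- 1, and Tfe3, a transcription factor of lysosomal genes, by -0.35 (SE 0.16, with 3 WT values).

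**Figure D4:**
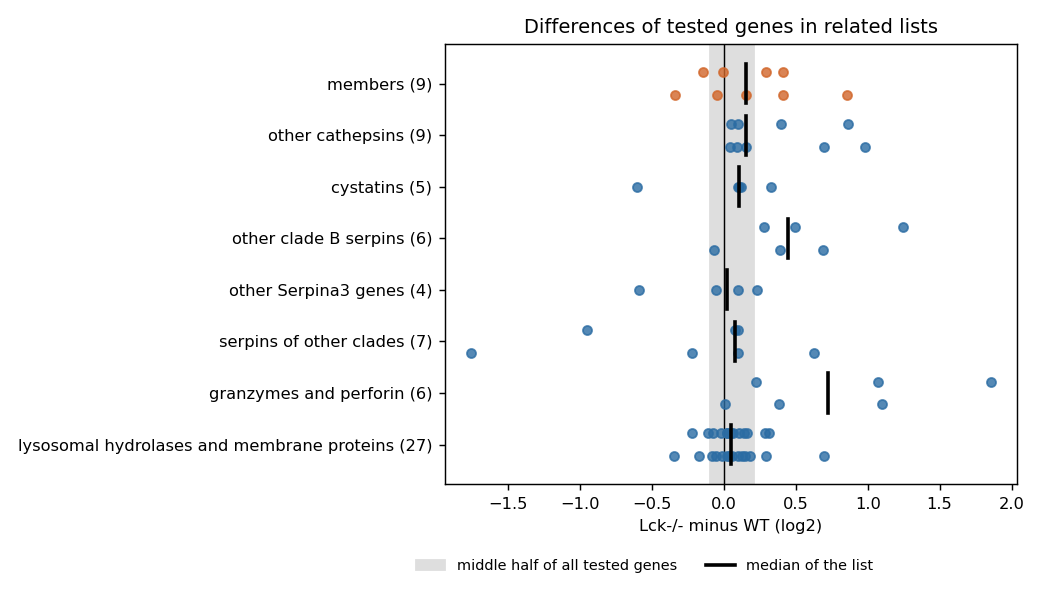
Difference between Lck-/- and WT (x axis, log2) of each tested gene in the set (orange) and in 7 related lists (blue), with the median of each list as a black bar and the interquartile range of all tested genes in grey. The number of tested genes stands in brackets, and the widest spread is that of serpins of other clades, from -1.76 to 0.63.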

How the data were processed

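Per the file headers, Agilent Feature Extraction 10.7.3.1 gave the intensity of each spot in the authors' files, background-subtracted and detrended but on no common scale between arrays. A second, deposited table holds log2 values (column medians 6.57 to 6.61) whose correlation with the logged median signal of each spot was 0.9994 to 0.9998. How its arrays were normalized to each other is not stated by these sources, and it served as an alternative only. The labels' protocols give RNA with an integrity number above 8 and 50 ng labelled.

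Here log2 of the processed signal was taken minus each array's 75th percentile over 59305 non-control spots, and outlier spots were dropped. Probes well above background on at least 3 of 7 arrays entered. Symbols came from the reference gene table (GRCm38.p6, names only), which matched all 10 members, and 22483 unnamed probes were left out. A gene was read from its brightest passing probe. Groups and replicate numbers came from titles and were compared with limma 3.58.1 in R 4.3.3 (lmFit, eBayes). Replicate numbers were not taken as pairs. All arrays were on 1 slide. The fit was also run on data simulated with known changes and independent noise for each gene. That run checks the code only and does not show how the fit performs on these arrays. The number of arrays limits the precision.

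Members, lists, tests and alternatives were chosen with earlier results of these data known. Protease and inhibitor pairs were chosen after values were seen. The naming rule took every member and, from each list, the 3 genes with the highest mean and the 2 with the largest difference among genes detected on all arrays. Differences are printed for the second kind in each protease, inhibitor and lysosomal list, and of the first kind for Cst7, Serpinb6a and Serpinb6c. Ctsg, Ctsk, Ctso, Gzma and Gzmm were named after their values were seen. Alternatives covered scaling, background correction, the deposited values, filters, probe summary, blocks, array weights, a trended robust variance and left-out arrays.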

Additional observations from a re-analysis of the deposited data

Results flagged for a closer look

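In a group of 4 arrays, a value was singled out when its gap to the nearest other, over the range, exceeded the 95% critical value of Dixon's test, and chance alone does this in about 1 group in 20. Of 36 sets of WT values examined, 9 had such a value. WT 2 was low for Serpinb9 (1.42) and for Gzmb (4.48), and, through Gzmb, for Gzmb minus Serpinb9 (-1.31, relative to the WT mean). WT 4 was high for Gzma (2.21) and Gzmc (3.04), and, through Gzma, for Gzma minus Serpinb6b (1.52, relative to the WT mean). WT 3 was low for Serpina3f (-1.72) and for Serpinb9b (-7.39, not well above background) and high for Serpina3h (2.31). WT 3 also carried the most non-uniform outlier spots of the 7 arrays, 1403, and WT 4 the highest NK marker level of its group. The part of either in these values was not tested.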

How the results depend on the processing

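No member passed an adjusted p under 0.05 (limma) under any of 22 alternatives, and 1 to 3 were past an unadjusted p under 0.05. Ctsw, Ctsb, Ctss, Serpinb9 and Serpinb6b kept their direction under all of them, Ctsw from 0.65 to 1.00. Genes called among all genes were 0, or 1 with the replicate block and with the file number block, 0 to 1 with single arrays left out, and 57 without WT 4 and Lck-/- 1. Deviations of same-numbered arrays from their group means correlated at 0.11, 0.06 and 0.02. The labels do not pair the arrays, and such correlations cannot tell whether same-numbered samples were handled together. Under the replicate block Ctsw was 0.95 (limma adjusted p = 0.193), the same difference as without WT 4, which has no same-numbered Lck-/- array. The number of genes at an unadjusted p under 0.05 was 1991 over single probes and 1563 with the replicate block, against 1052. It was 653 without Lck-/- 3 and 1611 without WT 4 and Lck-/- 1.

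Signs turned mostly for differences near 0. Ctsl became 0.013 with quantile normalization, 0.011 with a slide row block, 0.020 with normexp, 0.019 with the deposited values, 0.017 without WT 4 and Lck-/- 2 and 0.026 with the replicate block, and ran from -0.081 to 0.062 with single arrays left out. Ctsc became 0.12 with averaged probes and 0.055 without WT 4 and Lck-/- 1 (-0.15 to 0.053 with single arrays left out). Serpina3g became 0.24, and Ctsb minus Serpina3g -0.48, without WT 4 and Lck-/- 1. Median centring gave -0.049 for Ctsd, -0.051 for Lgmn and -0.11 for Cst7 and Serpina3h. Serpina3h was -0.030 with the replicate block and with the slide row block and -0.034 with the file number block, and Tfe3 was 0.043 with averaged probes. With single arrays left out Serpina3h ran from -0.13 to 0.59, Lgmn from -0.10 to 0.61, Cst7 from -0.048 to 0.22 and Ctsh from -0.11 to 0.91. The cause of these turns was not tested. Signal over background limits Serpinb9b, which was not well above background on any array.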
